A study of Homo sapiens with 4 samples.

Results

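MiR-140 is a single hairpin whose strands are both known to work as mature miRNAs, miR-140-5p and miR-140-3p. These were 2 of the 1212 miRNAs on the arrays, and they were found by their exact names. They were chosen by the log2 ratio of miR-140-3p, the most negative one measured for HepG2-Twist1 over HepG2-vector, on the array that carried those lines, so that ratio is given below as a description. HepG2, which the study describes as a human hepatocellular carcinoma cell line, was measured as 4 lines with 1 sample each. HepG2-vector, the control line, has "none" in the field for its transfection construct. HepG2-Twist1 carried pcDNA-Twist1, HepG2-Bcl-2 carried the pcDNA-Bcl-2 plasmid, and HepG2-Twist1/Bcl-2 carried both plasmids. In the transfected lines the added genes came on top of what the cells make themselves, and the sources do not say whether a line grew from a single clone. Array 1 held HepG2-vector in the dye Cy3 and HepG2-Twist1 in Cy5, and array 2 held HepG2-Twist1/Bcl-2 in Cy3 and HepG2-Bcl-2 in Cy5. Presence of the Bcl-2 plasmid and the array can therefore not be told apart. The Twist1 line was in Cy5 on array 1 and in Cy3 on array 2, so how the Twist1 ratio differs with Bcl-2 and how it differs with the dye cannot be told apart either. Each miRNA had 3 repeat spots per array, and SD below is over these spots. It covers the error of spotting and scanning and not the spread between cultures, so no test between lines could be made.

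The MIR140 gene lies within WWP2, which encodes a ubiquitin ligase, and is transcribed in the same direction. It is best known from cartilage, where SOX9 drives it together with its host gene in the mouse and where mice without it have short bones. In the mouse, miR-140-5p represses the histone deacetylase gene Hdac4 and the aggrecan-degrading protease gene Adamts5, and in human liver cancer cells its described targets include TGFBR1 and FGF9, a receptor and a ligand of growth factor pathways. Twist1 is a transcription factor known for repressing E-cadherin in epithelial to mesenchymal transition, and Bcl-2 is a mitochondrial protein that blocks apoptosis. MiRNAs choose their targets mainly by the seed at bases 2 to 8, so the arms of a hairpin have different targets.

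The RefSeq sequences of both arms are shown because the arms gave very different readings. They also show whether another miRNA on the array has the same seed, by which targets are mainly chosen. The seed is in capitals, and both sequences equal the targets of the probes as the array tables give them.
miR-140-5p: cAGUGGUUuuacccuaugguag
miR-140-3p: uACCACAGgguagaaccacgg
In the hairpin of 100 nt the arms are in capitals, miR-140-5p to the left.
MIR140: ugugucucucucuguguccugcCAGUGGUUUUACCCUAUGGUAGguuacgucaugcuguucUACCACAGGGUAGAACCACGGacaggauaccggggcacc

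The hairpin lies at chr16:69933081-69933180 on the plus strand of GRCh38.p14, inside the span of WWP2 at chr16:69762332-69941739. MiR-140-5p, of 22 nt, takes chr16:69933103-69933124, and miR-140-3p, of 21 nt, takes chr16:69933142-69933162. RNAfold drew 41 base pairs in the hairpin, 19 of them between the arms, with 17 nt between the arms. G and C made up 45.5% of miR-140-5p and 57.1% of miR-140-3p. The seeds AGUGGUU and ACCACAG were shared with 0 other miRNAs on the array, also when only bases 2 to 7 were compared. The nearest sequences were 8 edits away. For miR-140-3p these were miR-24-2*, with normalized intensities of 161 in HepG2-vector, 159 in HepG2-Twist1 (array 1), 85.8 in HepG2-Twist1/Bcl-2 and, again on array 2, 159 in HepG2-Bcl-2, and miR-376a, at 22.3, 24.8, 10.5 and 10.4 in the same order. Neither stood out in HepG2-vector. For miR-140-5p it was miR-100*, at 20.2, 17.7, 13.7 and 12.7, below the minimum intensity of 32 in every line.

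A list of hepatocyte miRNAs was measured in part on the arrays. Of 5 hepatocyte miRNAs, 3 reached 32 in all 4 lines. These were miR-192 (352, 362, 152 and 443 in the order above), miR-194 (110, 108, 146 and 151) and miR-148a (53.3, 47, 32.1 and 59.2). MiR-122, the defining hepatocyte miRNA, stayed below 32 in all of them (20.4, 17.2, 24 and 30.3), as did miR-885-5p (19.2, 16.8, 30.5 and 30.9). Among markers matched by sequence, 1 of 4 for blood, 3 of 4 for fibroblasts and 2 of 3 for muscle reached 32. In each case this was on array 2 only. The highest of these matched markers was miR-133a, a muscle miRNA, at 74.6 in HepG2-Bcl-2. Over the lines, summed levels of matched markers were 65.3 to 112 for blood, 74.5 to 141 for fibroblasts and 59.9 to 142 for muscle. The counts and sums leave out miR-451a of the blood list and miR-10b-5p of the fibroblast list, which found no match. The array did carry miR-451, below 32 in every line, and miR-10b, at 27.1, 26.5, 80.4 and 104 in the order above. MiR-10b thus stood above miR-133a in HepG2-Bcl-2. The part of all these markers in the results below was not tested. The numbers of miRNAs at 32 or more were 282, 286, 482 and 532, so array 2 had more, but at 100 or more they were close, at 144, 144, 155 and 165. The HepG2-Bcl-2 sample stood apart in several miRNAs. MiR-146a, a miRNA of inflammatory signalling, had 9430 there and was below 32 in the other lines. The same held for miR-200b (693 in HepG2-Bcl-2), miR-146b-5p (317) and miR-155 (247), among others.

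Before any normalization, the miR-140-3p spots of HepG2-vector read 805, 729 and 712 (749 ± 49.3, SD, n = 3 spots). Those of HepG2-Twist1 read 77.8, 90.8 and 78.9 (82.5 ± 7.2). The line with both genes read 381, 343 and 300 (341 ± 40.9), and HepG2-Bcl-2 read 93.6, 103 and 91.1 (95.9 ± 6.27). All 12 spots were above each of the 20 empty spots of their channel, the medians of which were 105, 38, 159 and 51.7. Less those medians, the mean signal was 644 and 182 in the Cy3 lines, HepG2-vector and HepG2-Twist1/Bcl-2, and 44.5 and 44.2 in the Cy5 lines, HepG2-Twist1 and HepG2-Bcl-2. Both Cy3 lines were thus above both Cy5 lines, and HepG2-vector was the higher of the Cy3 lines.

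The spots of miR-140-5p stood at the level of the empty spots. They read 108, 106 and 98.4 in HepG2-vector, and 37.2, 37.6 and 36.7 in HepG2-Twist1, the lines of array 1. On array 2 the line with both genes had 156, 151 and 122, while HepG2-Bcl-2 had 47, 49.6 and 46.3. Of these 12 spots, 0 were above the highest empty spot of their channel. The highest empty spots read 114, 41.3, 174 and 56.8. The arrays do not tell a low amount of this arm from a probe that hybridized poorly.

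Background was then corrected in each channel. The average dye trend within each array was taken off by a loess curve, which centres the log2 ratio of miRNAs of like intensity. A dye effect particular to a single probe is not taken off by it. After both steps the miR-140-3p spots stood at 453, 404 and 394 in HepG2-vector (416 ± 31.6, SD, n = 3 spots). In HepG2-Twist1 they stood at 98.5, 119 and 99.8 (105 ± 11.3). On array 2 they were at 185, 158 and 129 in the line with both genes (156 ± 27.8), while in HepG2-Bcl-2 they were at 104, 117 and 99 (107 ± 9.44). Each spot of HepG2-vector was above each spot of the other lines. HepG2-Twist1/Bcl-2 came next, its spots above those of HepG2-Twist1 and HepG2-Bcl-2, while the spots of these last lines overlapped. MiR-140-5p had 18.1, 16.5 and 12.3 in HepG2-vector (15.6 ± 3.03), and 15.2, 15.3 and 12.2 in HepG2-Twist1 (14.2 ± 1.81). On array 2 it had 36.2, 32.4 and 15.4 in the line with both genes (27.4 ± 11.1) and 27.5, 30.7 and 19.2 in HepG2-Bcl-2 (25.6 ± 5.92). Its mean lay below 32 in every line. No ratio between lines is given for this arm, and whether the arms moved together could not be read from these arrays.

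**Figure D1:**
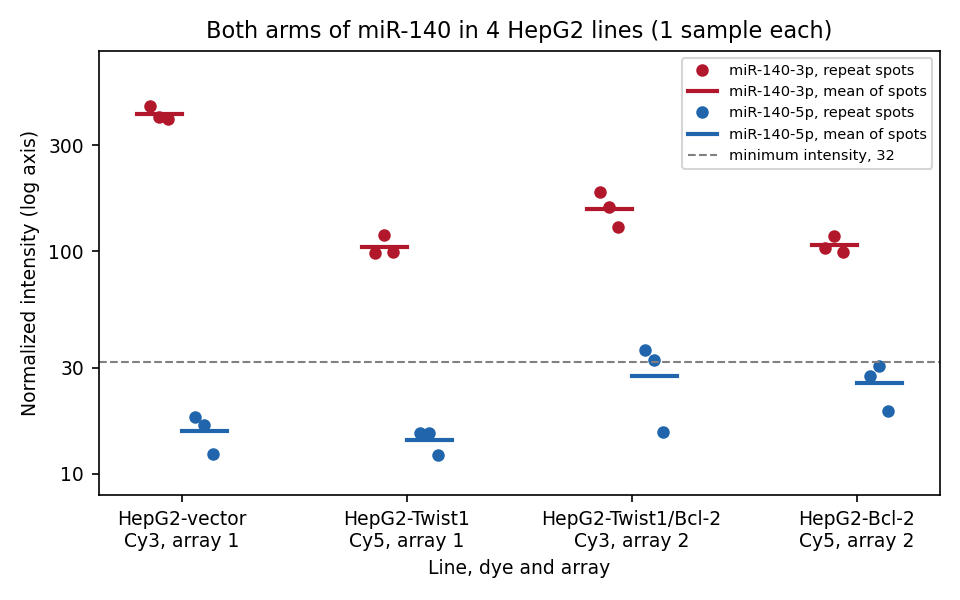
Normalized intensity (log axis) of the 3 repeat spots of miR-140-3p (red) and miR-140-5p (blue) in the 4 lines, with the dye and array of each; bars are means over spots and the dashed line is the minimum intensity of 32. MiR-140-3p had 416 in HepG2-vector and between 105 and 156 elsewhere, and the mean of miR-140-5p was below 32 in each line.

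To place the lines of different arrays side by side, the average intensities were also made alike between arrays by quantile normalization. The miR-140-3p spots were then at 477, 423 and 416 in HepG2-vector (438 ± 33.4), and 106, 126 and 107 in HepG2-Twist1 (113 ± 11.1). Those of array 2 were at 162, 137 and 104 in the line with both genes (133 ± 29.1) and 89.6, 100 and 78.4 in HepG2-Bcl-2 (89.1 ± 10.8). The spots of the lines that carry Twist1 now overlapped, and those of HepG2-Bcl-2 all lay below them. In the value table of the authors, miR-140-3p had 430 in HepG2-vector, 104 in HepG2-Twist1, 123 in the line with both genes and 67.9 in HepG2-Bcl-2, and in that order miR-140-5p had 4.74, 2.45, 13.3 and 8.19.

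Without Bcl-2, the line with Twist1 had 3.95-fold less miR-140-3p intensity than HepG2-vector. On the scale used for calls, log2 of intensity plus 50, the ratio was -1.59 ± 0.17, with spots at -1.76, -1.43 and -1.57, and it understates the change of dim miRNAs. This ratio chose the miRNA, and nothing is read from its rank as the lowest of the 304 miRNAs measured on array 1, those at 32 or more in at least 1 line. Of these, 1.64% were called lower, that is, at least 2-fold with all 3 spots on the same side. Just behind it in the order came miR-19b, a member of the proliferation-linked miR-17-92 cluster, at -1.32 ± 0.19 (451 in HepG2-vector and 151 in HepG2-Twist1), and miR-1246 at -1.30 ± 0.15 (1203 and 460).

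Array 2 was not used in the choice. There the line with both genes had 1.46 times the miR-140-3p intensity of the line with Bcl-2 alone, and the log2 ratio was 0.40 ± 0.18. All 3 spots were above 0, at 0.61, 0.32 and 0.26, but the ratio did not reach the call, on an array where 3.55% of 592 measured miRNAs were called higher and 4.9% lower. It ranked 66 from the highest of these 592. The shares called depend on the processing and on which miRNAs count as measured. In the authors' values 36 of 279 were called lower on array 2 and 30 higher. Among the 137 miRNAs that both lines showed at 100 or more, the ratio of miR-140-3p ranked 41 from the highest. The ratios of those 137 had a median of 0.09 and an SD of 0.84. The drop on array 1 was thus not seen on array 2, where the ratio lay well inside the spread of the other miRNAs. Of the neighbours on array 1, miR-19b was lower on array 2 too, at -1.13 ± 0.15, and miR-1246 was higher, at 0.46 ± 0.27.

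The Twist1 ratio with Bcl-2 exceeded that without Bcl-2 by 1.98 log2 units. The Cy3 line had more miR-140-3p than the Cy5 line on both arrays. The mean over both arrays was -0.59 for lines with Twist1 over lines without, and -0.99 for Cy5 over Cy3. The dye's part in the difference cannot be told apart from that of Bcl-2.

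**Figure D2:**
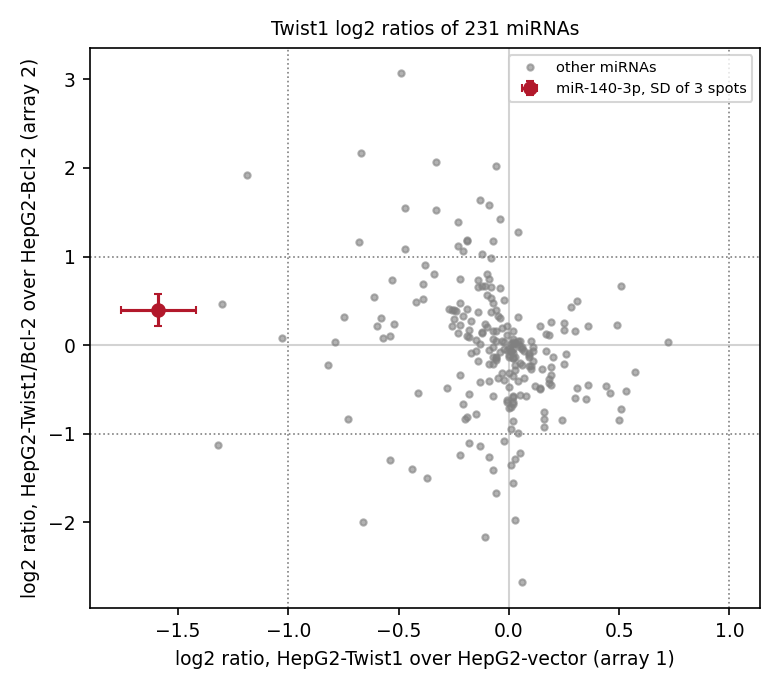
Log2 ratio of lines carrying Twist1 over those lacking it, on array 1 (x axis) and array 2 (y axis), for the 231 miRNAs at 32 or more in all 4 lines; dotted lines mark a 2-fold ratio, and bars are the SD of 3 spots. MiR-140-3p lies at -1.59 on array 1, which chose it, and at 0.40 on array 2.

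The loess step moved these ratios. On array 1 the ratio of miR-140-3p was -2.84 ± 0.17 before it, and the curve took off -1.25. The 50 miRNAs nearest to it in intensity had ratios between -2.58 and -0.35 before the step, with a median of -1.29, and 0 of them were lower than miR-140-3p, which follows from the choice of the most negative ratio and is given as a description. On array 2 the ratio was 1.39 ± 0.20 before it and the curve took off 0.99. The 50 nearest there ran from -2.63 to 2.61 with a median of 0.92, and 38 of them were below miR-140-3p and 12 above. On array 2 miR-140-3p thus lay within the range of its neighbours in intensity.

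The spots of miR-140-3p lay apart, in rows 49, 56 and 63 of columns 3, 13 and 23, and the 18 spots around each of them, up to 2 rows or columns away, had median log2 ratios of -0.03, 0.04 and -0.02. On array 2 the medians were 0.14, -0.02 and -0.18, beside spots of miR-140-3p at 0.61, 0.32 and 0.26, which fell in the same order. Ratios of the surrounding spots there ran from -1.63 to 0.38, -1.92 to 0.19 and -2.36 to 0.01. On array 1 they all lay between -0.20 and 0.17. Whether the surroundings had a part in the ratios of miR-140-3p was not tested.

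The comparisons across arrays share samples with those above and were read from the quantile-normalized values. HepG2-Bcl-2 had 4.92-fold less miR-140-3p than HepG2-vector, with a log2 ratio of -1.81 ± 0.14 and spots at -1.92, -1.66 and -1.86. It was called lower, as were 2.27% of 485 miRNAs measured, and it was the lowest of them. This ratio uses the HepG2-vector sample that also chose the miRNA, and it compares Cy5 with Cy3. HepG2-Twist1/Bcl-2 against HepG2-Twist1 gave 0.17 ± 0.25, with spots at 0.45, 0.09 and -0.03 on both sides of 0. It was not called, where 6.61% of 454 miRNAs were called higher and 6.39% lower.

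The remaining comparisons, added after the levels had been seen, hold the dye fixed. In Cy3, HepG2-Twist1/Bcl-2 had 3.3-fold less miR-140-3p than HepG2-vector, with a log2 ratio of -1.42 ± 0.16 and spots at -1.31, -1.34 and -1.60. It was called lower along with 7.57% of 449 miRNAs, and ranked 18 from the lowest. In Cy5, HepG2-Bcl-2 over HepG2-Twist1 gave -0.23 ± 0.07, with spots at -0.16, -0.23 and -0.29, and was not called (1.43% of 490 miRNAs were called lower). The Cy3 comparison uses the HepG2-vector sample that served in the choice, and both compare different arrays.

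HepG2-vector was the line in which miR-140-3p stood highest, at least 2-fold above each of the other lines. With these values this held for miR-140-3p and for no other of the 387 miRNAs at 32 or more in HepG2-vector, and 0 miRNAs lay at least 2-fold below all of the other lines there. Because the HepG2-vector sample served in the choice, this is a description of that sample. In the authors' values miR-19b and miR-3124 met the criterion too (3 of 259), and after plain subtraction of the empty spots miR-19b did (2 of 204).

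**Figure D3:**
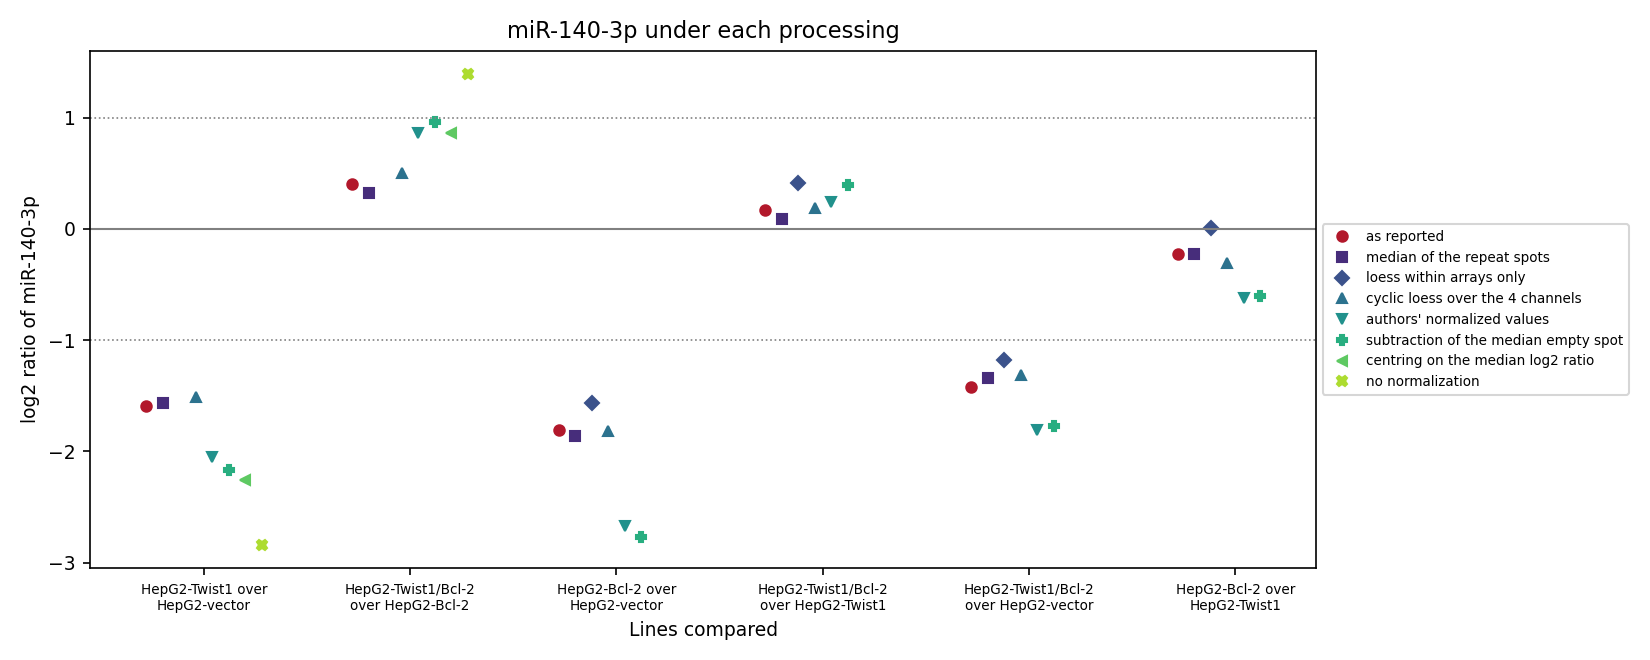
Log2 ratio of miR-140-3p for 6 pairs of lines (x axis) under each way of processing the arrays (symbols); dotted lines mark a 2-fold ratio. The 3 comparisons with HepG2-vector lie at -1.18 or lower under every processing drawn, and HepG2-Twist1/Bcl-2 over HepG2-Bcl-2 runs from 0.32 to 1.39. Those 3 share the HepG2-vector sample that served in the choice, and every processing uses the same spots. Median centring and no normalization are drawn only for the ratios within an array.

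Among the 240 miRNAs at 32 or more in all 4 lines after quantile normalization, those with the pattern most like that of miR-140-3p were found by the root mean square distance of their log2 levels over the 4 lines, each centred on its own mean. MiR-378 was nearest, at a distance of 0.356 where the median over all was 0.738. MiR-378 had 491 in HepG2-vector, 305 in HepG2-Twist1, 278 in the line with both genes and 176 in HepG2-Bcl-2. MiR-3621 followed at 0.391 (590, 391, 291 and 269), then miR-186 at 0.397 (247, 146, 139 and 112), miR-4284 at 0.428 (915, 498, 487 and 578) and miR-3141 at 0.44 (2623, 1540, 1995 and 1589). All 5 were highest in HepG2-vector, by less than miR-140-3p was. With 4 points each, from the same 4 samples, such likeness is a description.

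**Figure D4:**
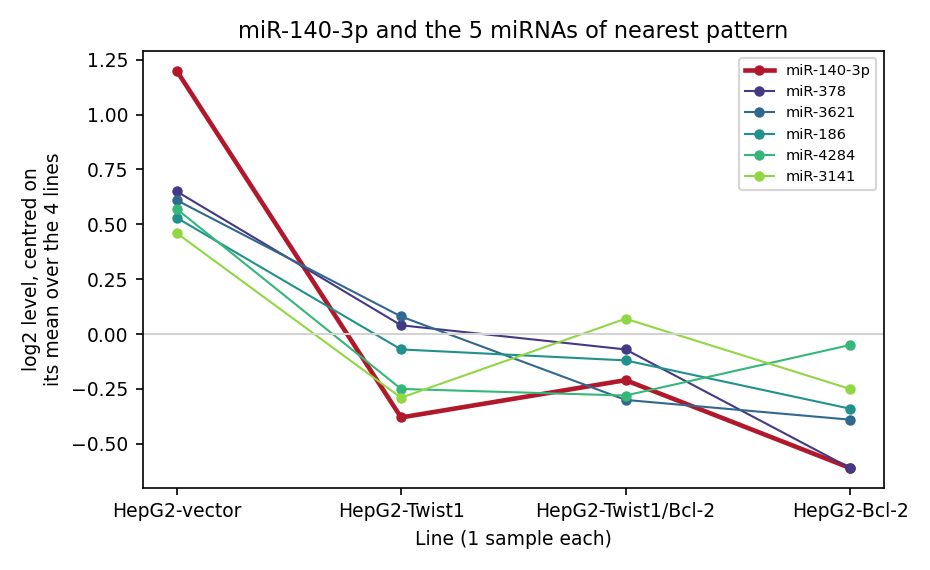
Log2 level centred on its mean over the 4 lines (y axis) for miR-140-3p and the 5 miRNAs of nearest pattern, 1 sample per line. MiR-140-3p runs from 1.20 in HepG2-vector to -0.61 in HepG2-Bcl-2, and the other 5 stand between 0.46 and 0.65 in HepG2-vector.

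By the cut of 32, that only the 3p arm of miR-140 was measured was not unusual on these arrays. Of 259 hairpins with both arms on the array, 93 had both arms at 32 or more in some line, 61 only the 5p arm, 41 only the 3p arm and 64 neither. MiR-140 was among the 41, and among 15 hairpins whose 3p arm reached 32 in all 4 lines and whose 5p arm did so in none. The converse was true of 30 hairpins. On array 2 the cut of 32 lies close to the empty spots. In HepG2-Twist1/Bcl-2, miR-140-5p spots that read 156 and 151, below the median empty spot of 159, stood at 36.2 and 32.4 after normalization. Some arms counted at 32 or more in some line may therefore lie at background. Where both arms were at 100 or more in both lines of an array, their Twist1 log2 ratios differed by a median of 0.36 over 5 hairpins on array 1, at most by 0.43, and by a median of 0.57 over 4 hairpins on array 2, at most by 1.14.

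Of a list of 15 other miRNAs known from cartilage and skeleton, 9 were measured on array 1. Their median log2 ratio was -0.14 beside -0.02 over all miRNAs measured, and 0 were called, where 1.64% of all miRNAs were called lower, so the count is close to the background. MiR-455-3p, which is induced with miR-140 in cartilage formation and lies within a collagen gene, had 306, 273, 342 and 252 in the lines, with log2 ratios of -0.14 ± 0.11 on array 1 and 0.37 ± 0.13 on array 2, neither called. Its partner arm miR-455-5p was below 32 in all lines. On array 2, 12 of the list were measured, with a median of -0.18 beside -0.04 over all miRNAs. MiR-98, a let-7 family member, was called higher there at 2.07 ± 0.10 (2788 in the line with both genes, 627 in HepG2-Bcl-2). MiR-146a was called lower at -7.65 ± 0.38. It counted as measured only through HepG2-Bcl-2, where it was high (9430), so nothing is read from its call. Thus 1 of 12 went each way, where 3.55% of all measured miRNAs were called higher and 4.9% lower, shares that depend on the processing.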

How the data were processed

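The authors deposited 2 scanner tables, which hold the intensity of every spot in each channel, and a value table of normalized signal for 1212 miRNAs in the 4 samples. Per the study's methods the value table followed background subtraction and LOWESS normalization. The methods name a minimum of 32 as a later filter, which the value table does not carry, since it keeps values below it. Other columns of the tables were not needed. The deposited scanner intensities were corrected for background by normexp (offset 50), and each array was then normalized by loess (span 0.3, 4 iterations, the 332 control spots with weight 0) in limma 3.58.1 (R 4.3.3). Ratios across arrays used quantile normalization of the average log2 intensity in addition. A level is the mean log2 over 3 spots turned back, less 50. A miRNA was measured at 32 or more in at least 1 of the lines compared, and called where the lines differed by at least 1 on the log2 scale and no spot went the other way. The number of arrays, 2, limits the precision. Dyes follow the labels of the samples.

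The members, lists and comparisons were chosen with earlier results of these data known. The text names both arms, the 2 miRNAs next to miR-140-3p on array 1, the 5 of nearest pattern and the closest sequences. It also names skeletal, hepatocyte, blood, fibroblast and muscle markers. MiR-3124, miR-200b, miR-146b-5p and miR-155 were named after their values were seen. Sequences and positions are from RefSeq (GRCh38.p14), in which both members were matched, and were folded with RNAfold 2.7.2. Other normalizations, subtraction of the empty spots, the authors' values, medians of spots, spots left out and the methods' t-test, applied here between repeat spots, were tried.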

Additional observations from a re-analysis of the deposited data

Results flagged for a closer look

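The log2 ratio of miR-140-3p for lines with Twist1 over lines without was -1.59 on array 1 and 0.40 on array 2, a difference of 1.98. All 3 repeat spots were below 0 on array 1 and all 3 above 0 on array 2. With 1 sample per line the difference was not tested, and the arrays differ in Bcl-2, in the dye of the Twist1 line and in the hybridization.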

How the results depend on the processing

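The Twist1 ratio of miR-140-3p on array 1 (-1.59) was -2.26 with median centring, -2.84 with no normalization, -2.17 after subtraction of the empty spots and -2.05 in the authors' values. On array 2 (0.40) the same settings gave 0.86, 1.39, 0.96 and 0.86, so it passed the 2-fold size with no normalization. HepG2-Bcl-2 over HepG2-vector (-1.81) was -1.57 with loess only, -2.77 after subtraction and -2.67 in the authors' values. HepG2-Twist1/Bcl-2 over HepG2-vector (-1.42) was -1.18, -1.77 and -1.81, and HepG2-Bcl-2 over HepG2-Twist1 (-0.23) was 0.01, -0.60 and -0.62, and -0.31 with cyclic loess. HepG2-Twist1/Bcl-2 over HepG2-Twist1 stayed within 1 SD under 8 of 8 alternatives. HepG2-vector had the highest miR-140-3p level under each of 10 settings. The cause of these moves was not tested. Subtraction and the authors' values carry no offset of 50.

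MiRNAs called on array 1 numbered 5 of 304 measured (5 lower, 0 higher). They numbered 23 of 328 with median centring and 131 of 814 with no normalization, all of them lower. In the authors' values they were 9 of 278 (6 lower, 3 higher). On array 2 the called miRNAs numbered 50 of 592 (29 lower, 21 higher) and 57 of 618 with median centring (19 and 38). With no normalization they were 117 of 968 (10 and 107), and in the authors' values 66 of 279 (36 and 30). The methods' t-test is meant for groups of samples. Applied here to the repeat spots of array 2, since each line had 1 sample, it passed 97 of 592 miRNAs at 0.01, and 24 after Benjamini-Hochberg adjustment. MiR-140-3p was not among them, and the test covers the spots of these samples alone. MiR-140-5p reached 32 in 0 lines, in 1 with no normalization, in 1 by the median of its spots, and in 0 to 1 with a repeat spot left out, each time HepG2-Twist1/Bcl-2. Ratios of miR-140-5p and differences between the arms were planned but gave no value, since this arm lay below 32. No paired analysis was possible because each line had 1 sample.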
